A study of Homo sapiens with 6 samples.

Results

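Chromatin accessibility was measured at 6 genes of the pluripotency programme, PRDM14, FOXD3, SALL4, ZFP42 (also called REX1), LIN28A and LIN28B, in naive human embryonic stem (nES) cells. A peak of the counts table was taken as belonging to one of these genes if it lay inside the gene or within 50 kb of it, by the GENCODE 44 annotation of hg38. This gave 145 of the 171517 peaks of the table, 33 at PRDM14, 18 at FOXD3, 23 at SALL4, 25 at ZFP42, 24 at LIN28A and 22 at LIN28B. All 6 libraries came from the established line H9, human embryonic stem cells kept in tt2iLGö medium (N2B27 with hLIF and with inhibitors of MEK, GSK3 and PKC) under low oxygen and removed from mouse feeder cells before plating on laminin. Of these, 3 libraries were grown with 4 mM dm-αKG, a cell-permeable dimethyl ester of α-ketoglutarate, for 24 h, and 3 were controls, which the labels name DMSO in one field and 0 mM dm-αKG in another. By the labels the cells were plated 48 h before the treatment began, whereas the methods of the study describe treatment from seeding. The experiment was performed once with biological replicates of a single line, so the spread between libraries does not cover other lines or repeats.

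ATAC-seq uses a transposase that inserts sequencing adapters into open DNA, so the number of reads in a peak rises with its accessibility. Counts in peaks were between 13025674 and 26828622 per library, and the smallest count of any library in the 145 peaks was 3. Libraries of one treatment correlated across peaks at an r of 0.942 to 0.966 on log2 CPM, and libraries of different treatments at 0.911 to 0.928, as a description of the libraries. Of 9 markers of naive cells fixed for this check, 8 had a promoter peak, and their summed normalized count was 3076 to 3133 in control and 3156 to 3266 with dm-αKG. Of 8 fibroblast markers, 5 had a promoter peak, with sums of 712 to 769 and 719 to 793, while COL3A1, LUM and DCN had none. The 8 promoter peaks of primed markers summed to 1667 to 1727 in control and to 1487 to 1547 with dm-αKG, without overlap. The naive sums did not overlap either, and were higher with dm-αKG, but their peaks did not rise as a group. At an edgeR adjusted p below 0.05, 1 of the 8 was higher and 1 lower. Among those that did not pass, NANOG went from 515 to 482 per 200 bp and POU5F1 from 472 to 524. The 9 promoter peaks of trophoblast markers (2251 to 2444 and 2311 to 2401) and the 6 of primitive endoderm markers (901 to 1002 and 880 to 1069) overlapped. Of the naive promoter peaks, that of KLF17 was lower (400 to 307 per 200 bp, log2 fold change -0.39, edgeR adjusted p = 0.001) and that of SUSD2 higher (658 to 825, 0.33, adjusted p = 1.08e-04). Promoter peaks of DUSP6 and SFRP2 (primed), GCM1 (trophoblast, -0.735) and TWIST2 (fibroblast) were also lower at an adjusted p below 0.05. Those of GATA6 (primitive endoderm, 0.309) and PRRX1 (fibroblast) were higher. Of the 220 peaks within 50 kb of the naive markers, 39 were lower (17.7%) and 12 higher (5.45%) at an edgeR adjusted p below 0.05. Near primed markers, 15 of 108 were lower (13.9%) and 2 higher (1.85%). Near trophoblast markers, 11 of 210 were lower (5.24%) and 25 higher (11.9%). For primitive endoderm markers these were 6 and 11 of 116, and for fibroblast markers 3 and 4 of 65. Over all peaks, 10.5% were lower and 7.43% higher. The part of these markers in the results below was not tested. In a bulk assay, fewer open cells and less open chromatin in each cell cannot be told apart.

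The 6 genes encode proteins with linked but different roles. PRDM14 is a PR-domain zinc finger factor that represses differentiation genes through corepressors, FOXD3 is a forkhead factor of pluripotent and neural crest cells, and SALL4 is a zinc finger factor that works with OCT4 and NANOG and recruits the NuRD deacetylase complex. ZFP42 is a zinc finger protein related to YY1 and a classic marker of naive pluripotency. LIN28A and LIN28B bind RNA and block the maturation of let-7 miRNAs, partly through the uridylyl transferases TUT4 and TUT7. Distal peaks near such genes are candidate gene regulatory elements, which transcription factors can bind at short sequence motifs.

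The following peaks are among those that carry the changes described below, and are shown so that the reader can see which motif letters each one holds. Sequences are from hg38, on the plus strand, 5′ to 3′. Capitals mark exact matches, on either strand, to the SOX core (ACAATG or ACAAAG), the TEAD motif (GGAATG) or the AP-1 motif (TGANTCA) in the 200 bp around the peak centre, and a peak without capitals held no searched motif. The first 2 were called less accessible with dm-αKG. The next 3 are lower peaks at FOXD3, SALL4 and LIN28B, and the last is a higher peak near LIN28A.
FOXD3, chr1:63299622-63299821, intron of LINC00466: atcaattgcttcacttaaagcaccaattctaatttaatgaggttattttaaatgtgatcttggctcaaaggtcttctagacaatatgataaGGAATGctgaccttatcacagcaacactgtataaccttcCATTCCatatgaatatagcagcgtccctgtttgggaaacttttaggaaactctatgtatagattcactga
ZFP42, chr4:188012341-188012541, between genes: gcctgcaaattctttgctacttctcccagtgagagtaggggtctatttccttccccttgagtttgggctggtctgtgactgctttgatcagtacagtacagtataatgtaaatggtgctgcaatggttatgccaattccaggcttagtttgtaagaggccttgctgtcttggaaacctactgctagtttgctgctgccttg
FOXD3, chr1:63294837-63295039, intron of LINC00466: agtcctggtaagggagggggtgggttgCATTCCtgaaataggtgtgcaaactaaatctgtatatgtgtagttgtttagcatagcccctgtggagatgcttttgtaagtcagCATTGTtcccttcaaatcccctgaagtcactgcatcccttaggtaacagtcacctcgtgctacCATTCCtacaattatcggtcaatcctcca
SALL4, chr20:51812959-51813166, between genes: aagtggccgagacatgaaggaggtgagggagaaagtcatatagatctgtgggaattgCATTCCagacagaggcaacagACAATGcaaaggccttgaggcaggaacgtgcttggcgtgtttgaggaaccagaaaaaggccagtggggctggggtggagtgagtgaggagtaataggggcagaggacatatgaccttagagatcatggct
LIN28B, chr6:104908100-104908309, intron of LIN28B-AS1: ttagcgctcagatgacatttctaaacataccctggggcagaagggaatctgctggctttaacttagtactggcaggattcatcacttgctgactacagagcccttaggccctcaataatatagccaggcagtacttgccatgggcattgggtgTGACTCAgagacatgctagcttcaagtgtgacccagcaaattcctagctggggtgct
LIN28A, chr1:26409403-26409602, between genes: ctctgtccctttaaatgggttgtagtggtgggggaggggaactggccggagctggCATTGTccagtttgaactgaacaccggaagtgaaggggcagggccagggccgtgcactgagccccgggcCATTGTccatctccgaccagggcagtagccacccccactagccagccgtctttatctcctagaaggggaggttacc
None of the words of 32 bases in these 6 peaks occurred at another place on the main chromosomes of hg38. Of the other 2 peaks at FOXD3 and SALL4 called less accessible, that at chr20:51762404-51762603 held 69.2% repeated words and that at chr1:63299241-63299440 held 25.4%. Of the 145 peaks, 107 held no such word and 3 were above 50%. The effect of repeated sequence on the counts was not tested.

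Treated and control cells were compared to ask which elements near these genes open or close with dm-αKG. With dm-αKG, 6 of the 145 peaks became less accessible at an adjusted p below 0.01 and a log2 fold change below -1, 2 each at PRDM14 and FOXD3 and 1 each at SALL4 and ZFP42 (quasi-likelihood test of edgeR, with p-values adjusted over all peaks by Benjamini-Hochberg). Of all peaks tested, 1.96% passed this rule, and with DESeq2, which called these 6 peaks too, 1.5%. None of the 145 became more accessible by the same rule in the other direction, against 0.782% of all peaks, and no peak of these genes had a log2 fold change above 1 even at an unadjusted p below 0.05 (edgeR), or passed with DESeq2. At LIN28A and LIN28B, 0 peaks were called less accessible, with 0 below the fold threshold at an unadjusted p below 0.05 and 0 called by DESeq2. The split by gene moved when 1 library was left out. Without dm-αKG replicate 2, PRDM14 had 4 and ZFP42 had 2 less accessible peaks, and without control replicate 2, FOXD3 had 1 and SALL4 had 0. SALL4 also had 0 without control replicate 3 or dm-αKG replicate 1, and LIN28A had 1 without control replicate 1 or dm-αKG replicate 3.

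Without a fold threshold, at an adjusted p below 0.05, 36 of the 145 peaks were lower and 6 were higher with dm-αKG, and 103 did not pass. The share of all peaks was 10.5% lower and 7.43% higher. By gene, 11 of 33 peaks were lower at PRDM14, 8 of 18 at FOXD3, 5 of 23 at SALL4, 6 of 25 at ZFP42, 4 of 24 at LIN28A and 2 of 22 at LIN28B. The higher peaks were 2 at PRDM14, 1 each at FOXD3, SALL4, ZFP42 and LIN28A, and 0 at LIN28B, where 0 also passed with DESeq2 or at an unadjusted p below 0.05. Whether the genes differ from each other in these shares was not tested. In 46 of the 145 peaks all 3 dm-αKG libraries lay below all 3 controls, in 14 they lay above, and in 85 the treatments overlapped, where 16.9% of all peaks lay below and 15.5% above. The median log2 fold change was -0.11 over the 145 peaks and 0.01 over all peaks. It was -0.31 at FOXD3, -0.23 at PRDM14, -0.15 at SALL4, -0.11 at ZFP42, -0.07 at LIN28B and -0.03 at LIN28A, with 96 of the 145 values negative. DESeq2 gave 28 lower and 4 higher peaks of the 145. Over the 164865 peaks to which it gave an adjusted p, 11394 were lower and 6267 higher, fewer than the 18047 and 12743 of edgeR.

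**Figure D1:**
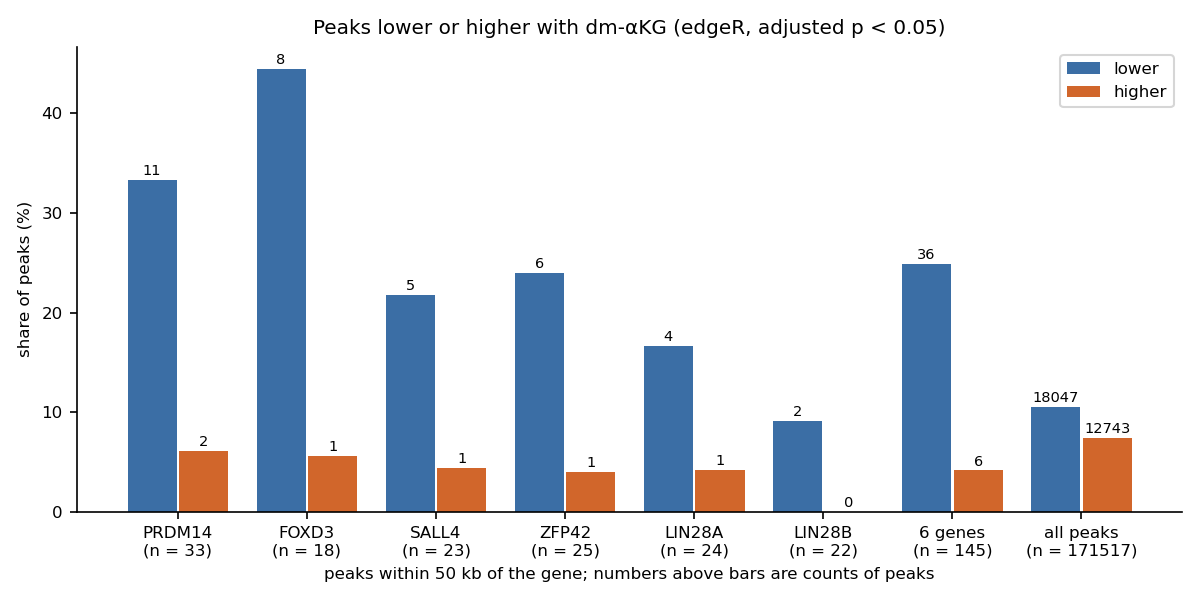
Share of peaks lower (blue) or higher (orange) with dm-αKG at an adjusted p below 0.05 for each gene, for the 6 genes together and for all peaks of the table, in percent on the y axis, with counts of peaks above the bars. The blue bar is above that of all peaks for every gene but LIN28B, which had 2 lower peaks of 22.

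PRDM14 lies on chromosome 8 from 70051651 to 70071693, on the minus strand, and its lower peaks sat on both sides of it. The peak with the smallest adjusted p of all 145 lay between genes, 3355 bp upstream of the gene's start, at chr8:70074948-70075148. It had normalized counts of 293, 317 and 347 in control and of 129, 128 and 129 with dm-αKG. All controls lay above all treated libraries, and the latter were almost identical. The log2 fold change was -1.30 (SE 0.12, edgeR adjusted p = 9.51e-16), and the peak held a SOX core and an AP-1 motif. Its neighbours at 2940 bp (log2 fold change -0.80, edgeR adjusted p = 1.66e-05) and 8197 bp upstream (-0.995, adjusted p = 1.70e-05) fell as well. The latter was just short of the fold threshold, and these 3 are consecutive peaks of the table.
The other called peak, at chr8:70007625-70007829, lay beyond the 3′ end of the gene, 43822 bp from it, and had the lowest fold change of the 145 peaks. Its counts were 148, 150 and 117 in control and 50.9, 48.7 and 58.4 with dm-αKG. Again no treated library reached the lowest control. This is a log2 fold change of -1.41 (SE 0.18, edgeR adjusted p = 1.09e-09). It was the outermost peak on either side inside the window, and the first peak outside, 55967 bp from the gene, had a mean of 422 in control and 310 with dm-αKG (log2 fold change -0.45). The strongest peak away from the promoter, at chr8:70032810-70033022, went from 506 ± 62.0 (SD, n = 3) to 390 ± 35.0 (SD, n = 3), a log2 fold change of -0.38 (edgeR adjusted p = 6.95e-04), with 1 treated library close to the lowest control. A lower peak 29653 bp upstream, nearer to the start of NCOA2, held the only OCT octamer (ATGCAAAT) among the 36 lower peaks (log2 fold change -0.46, edgeR adjusted p = 7.03e-05), and is named after its values were seen.

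FOXD3 lies on chromosome 1 from 63322567 to 63325128, on the plus strand, and had the highest share of lower peaks of the 6 genes. Both called peaks lay upstream in an intron of the long noncoding RNA gene LINC00466, 23226 and 22845 bp from the start of FOXD3, and both were found in the authors' control peak list only. The first had normalized counts of 59.9, 112 and 75.3 in control and 41.6, 25.7 and 29.9 with dm-αKG, without overlap, and control replicate 2 was well above the other controls. The log2 fold change was -1.30 (SE 0.23, edgeR adjusted p = 1.01e-05), and -0.99 (adjusted p = 0.00708) without control replicate 2, which does not pass the fold threshold. The second had 68.0, 65.8 and 57.1 in control and 25.1, 25.7 and 26.9 with dm-αKG. The log2 fold change was -1.31 (SE 0.25, edgeR adjusted p = 4.32e-05). In this peak the libraries of each treatment lay close together.
Further upstream in the same intron, the peak at chr1:63294837-63295039 fell from 447, 463 and 502 to 326, 321 and 346 (log2 fold change -0.51, SE 0.09, edgeR adjusted p = 3.85e-06). It had the second highest control level among the peaks of FOXD3, and its treatments did not overlap. The other lower peaks lay 7666, 5874 and 5042 bp upstream of the start and 5111 bp downstream of it, besides the promoter, with log2 fold changes from -0.52 to -0.28, and only that at 7666 bp overlapped between treatments. The strongest peak away from the promoter, at chr1:63367373-63367763 and nearest to ALG6, had control counts of 579 ± 40.2 and treated counts of 542 ± 22.6 (SD, n = 3 each) and did not pass (log2 fold change -0.10, edgeR adjusted p = 0.368). FOXD3 had no peak between 50 and 100 kb from it, and its outermost peak inside had a log2 fold change of 0.03.

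SALL4 lies on chromosome 20 from 51782331 to 51802521, on the minus strand, and its lower peaks fell into 2 groups, 3 within an intron of the neighbouring gene ATP9A and 2 upstream of SALL4. The called peak, at chr20:51762404-51762603, had counts of 72.4, 93.7 and 96.0 in control and 35.9, 46.2 and 50.9 with dm-αKG, with no overlap. Its log2 fold change of -1.01 (SE 0.21, edgeR adjusted p = 1.60e-04) was just past the threshold, and was -0.84 (adjusted p = 0.0109) without dm-αKG replicate 1, and -0.95 without control replicate 2 or 3, none of which passed the fold threshold. It also did not pass with total counts or upper-quartile scaling. This is the peak with 69.2% repeated words, and it was in the control list only. Its 2 lower neighbours in ATP9A, at chr20:51761271-51761475 (log2 fold change -0.55, edgeR adjusted p = 2.52e-04) and chr20:51761638-51762013 (-0.45, adjusted p = 0.0264), held 0% and 30.4% repeated words. The first of them had 232, 251 and 250 in control and 172, 158 and 169 with dm-αKG, so that every treated library was below every control.
Upstream of SALL4, the peak at chr20:51812959-51813166 had 129, 130 and 126 in control and 80.3, 79.5 and 52.4 with dm-αKG. Controls were close to each other and dm-αKG replicate 3 was the lowest. The log2 fold change was -0.82 (SE 0.17, edgeR adjusted p = 1.40e-04). The strongest peak away from the promoter, at chr20:51767170-51767375, had control counts of 399 ± 37.0 and treated counts of 384 ± 32.4 (SD, n = 3 each) and did not pass (log2 fold change -0.06, edgeR adjusted p = 0.709). Of the 23 peaks, 12 were nearer to the start of ATP9A than to that of SALL4, among them 3 of the 5 lower ones.

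ZFP42 lies on chromosome 4 from 187995771 to 188005046, on the plus strand, and its called peak, at chr4:188012341-188012541, lay 16670 bp downstream of the start, between genes. It had counts of 168, 159 and 166 in control and 68.8, 78.3 and 82.3 with dm-αKG. Both groups were tight and far apart. The log2 fold change was -1.12 (SE 0.16, edgeR adjusted p = 2.37e-08), and none of the searched motifs was found in it. Also lower were a strong peak at chr4:188021927-188022128, from 386 ± 15.3 to 300 ± 24.0 (SD, n = 3 each, log2 fold change -0.37, edgeR adjusted p = 0.00190), and one at chr4:188041713-188041918 (-0.65, adjusted p = 0.00114). The other 2 lower peaks besides the promoter lay upstream, 21005 and 19565 bp from the start (log2 fold changes -0.95 and -0.73). The strongest peak away from the promoter, at chr4:188042297-188042501, had control counts of 412 ± 10.7 and treated counts of 402 ± 21.4 (SD, n = 3 each) and did not pass (log2 fold change -0.04, edgeR adjusted p = 0.765).

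LIN28A lies on chromosome 1 from 26410817 to 26429728, on the plus strand, and its 4 lower peaks lay in its own introns or upstream. The main one, an intronic peak at chr1:26418911-26419281, had counts of 467, 496 and 457 in control and 287, 316 and 263 with dm-αKG. The highest treated library was far below the lowest control. The log2 fold change was -0.71 (SE 0.09, edgeR adjusted p = 7.37e-10), and the peak, the strongest of LIN28A away from the promoter, held a SOX core and a TEAD motif. Nearer to the start, intronic peaks at chr1:26412333-26412532 (-0.93, edgeR adjusted p = 7.15e-04) and chr1:26412588-26412795 (-0.55, adjusted p = 0.00148) fell as well. The first of these passed the fold threshold without control replicate 1 (-1.04) or without dm-αKG replicate 3 (-1.23). A peak 14354 bp upstream fell from 157 ± 14.5 to 98.1 ± 21.2 (SD, n = 3 each, log2 fold change -0.72, edgeR adjusted p = 3.09e-04). All 14 peaks nearer to the start of another gene did not pass, 5 of them near HMGN2, 5 near ZNF683, 3 near DHDDS and 1 near CRYBG2.
LIN28B lies on chromosome 6 from 104936616 to 105083332, on the plus strand, and had 2 lower peaks. This count was 4 without dm-αKG replicate 3, as at LIN28A and SALL4 in that fit, 3 without control replicate 1, and 1 with DESeq2. It was also 1 when replicate 2 or 3 of control, or the first dm-αKG library, was left out. The peaks were in an exon of LIN28B-AS1 at chr6:104940287-104940487, with 186, 200 and 182 in control and 144, 114 and 142 with dm-αKG (log2 fold change -0.50, SE 0.13, edgeR adjusted p = 0.00396), and in an intron of that gene at chr6:104908100-104908309. The second had 111, 121 and 118 in control and 57.4, 100 and 94.3 with dm-αKG, of which replicate 1 was much the lowest. Its log2 fold change was -0.53 (SE 0.17, edgeR adjusted p = 0.0224). It was -0.26 (adjusted p = 0.414) without dm-αKG replicate 1, -0.49 (0.0887) without control replicate 2, -0.52 (0.0553) without control replicate 3 and -0.51 (0.113) with DESeq2. The strongest peak away from the promoter, at chr6:104952961-104953172, had 398, 358 and 351 in control and 324, 282 and 338 with dm-αKG. Its treatments did not overlap, but it did not pass (log2 fold change -0.23, edgeR adjusted p = 0.0688), and it did without dm-αKG replicate 3 (-0.27, adjusted p = 0.0355).

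**Figure D2:**
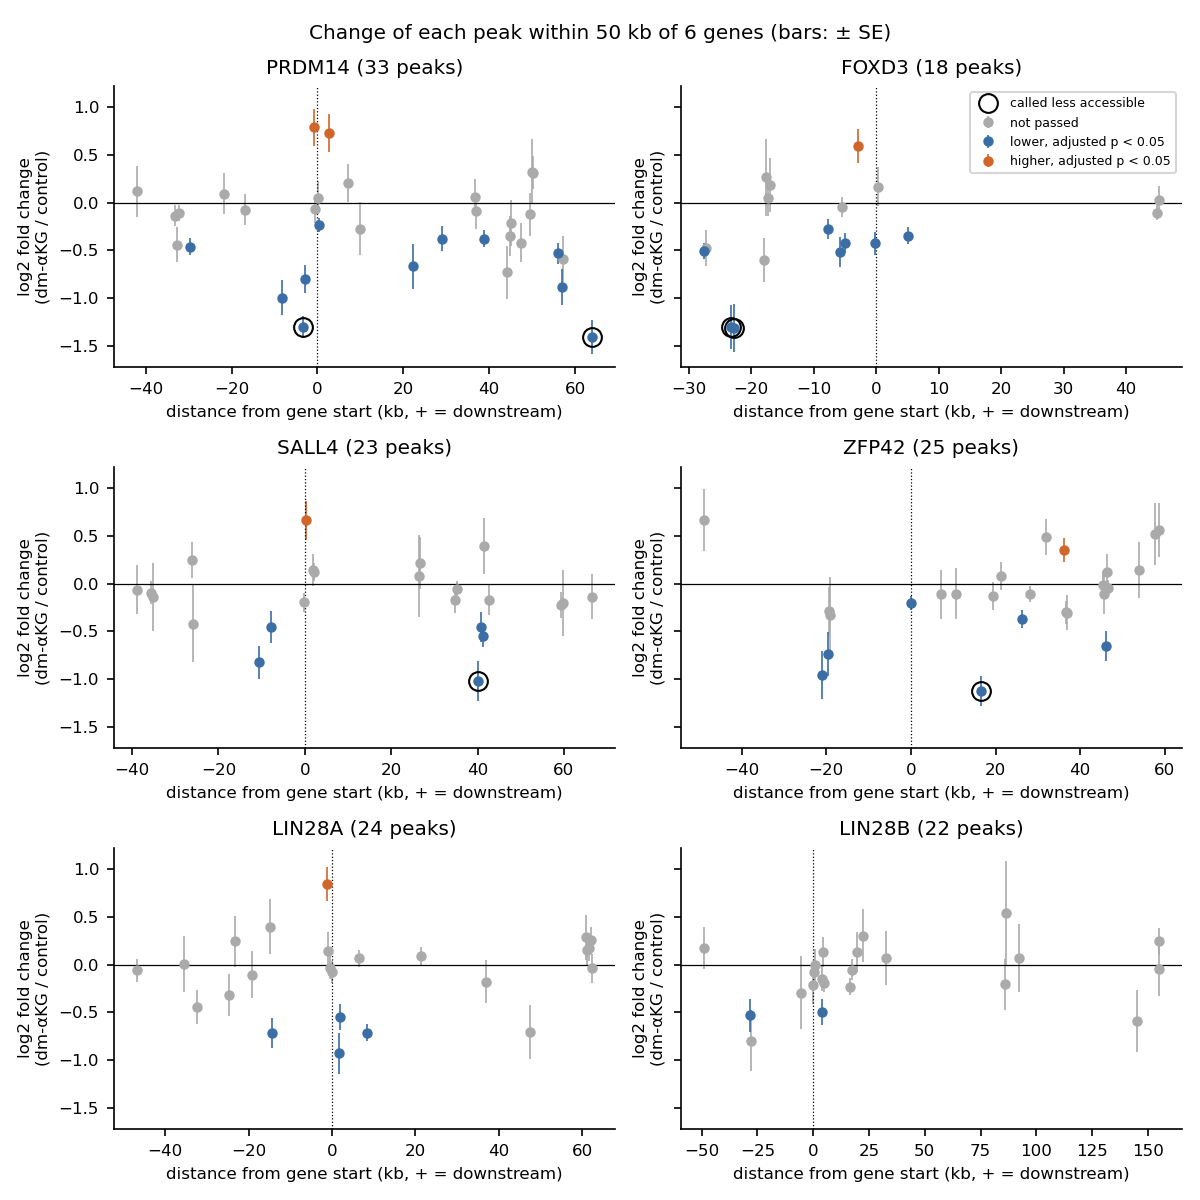
Log2 fold change (dm-αKG over control, with SE) of each of the 145 peaks against its distance in kb from the start of its gene, in 1 panel per gene. Blue points are lower and orange points higher at an adjusted p below 0.05, grey points did not pass, and rings mark the 6 peaks called less accessible, the lowest of them at -1.41 near PRDM14.

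Of the 6 higher peaks, 5 had control means of 49.9 to 72.1 normalized counts, below the median of 89.2 of the 145 peaks, and that at ZFP42 had 164. In 5 of the 6, a count made after the values were seen, the centre lay within 3 kb of an annotated start of the gene, against 7 of the 36 lower peaks. Over all peaks, 57.9% of the higher and 29.9% of the lower ones lay within 3 kb of the start of any gene. The higher peak with the smallest adjusted p, at chr1:26409403-26409602 and 1314 bp upstream of LIN28A, had 60.8, 56.7 and 83.8 in control and 122, 112 and 121 with dm-αKG, and its log2 fold change was 0.84 (SE 0.18, edgeR adjusted p = 1.87e-04). It held a SOX core at 2 places, and without control replicate 3, the highest control, it passed the rule for more accessible peaks (1.01, adjusted p = 9.35e-05). At PRDM14, the peak at chr8:70072369-70072568, 776 bp upstream, had 66.2, 54.3 and 46.2 in control and 93.9, 77.0 and 123 with dm-αKG (log2 fold change 0.79, edgeR adjusted p = 0.00172). The intronic peak at chr8:70068975-70069174 had 51.0, 50.1 and 57.1 and then 93.2, 92.4 and 71.8 (0.73, adjusted p = 0.00487), and it no longer passed without dm-αKG replicate 1 (0.66, adjusted p = 0.0520). Thus within 3 kb of the start of PRDM14 2 peaks rose and 2 fell, the promoter peak and that 2940 bp upstream. The peak 3355 bp upstream fell as well.
The FOXD3 peak at chr1:63319610-63319809, 2857 bp upstream, had 76.9, 64.1 and 75.3 in control and 108, 101 and 117 with dm-αKG (0.59, edgeR adjusted p = 0.0102), but it did not pass without control replicate 2 (0.51, adjusted p = 0.0710). An exonic peak of SALL4 at chr20:51802230-51802429 rose from 49.9 ± 6.55 to 78.2 ± 7.85 (SD, n = 3 each, log2 fold change 0.66, edgeR adjusted p = 0.0146). It lost the call without control replicate 1 (0.56, adjusted p = 0.0932), without dm-αKG replicate 1 (0.58, adjusted p = 0.111) and with DESeq2 (0.66, adjusted p = 0.0563). The ZFP42 peak at chr4:188031687-188032082, far from the start, had 149, 167 and 175 in control and 176, 233 and 223 with dm-αKG (0.35, edgeR adjusted p = 0.0418). It lost its call with DESeq2 (adjusted p = 0.116) and when any library but control replicate 3 or dm-αKG replicate 1 was left out (0.26 to 0.37). GC content had a median of 66.3% in the 6 higher peaks and 51.3% in the 36 lower ones. Over all peaks these medians were 59.0% and 51.0%. Of the 6 higher peaks, 5 were in the authors' dm-αKG list only, so they entered the counts partly through their level with dm-αKG. Their p-values, positions and lack of overlap are not free of that choice. The same holds for lower peaks in the control list only.

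**Figure D3:**
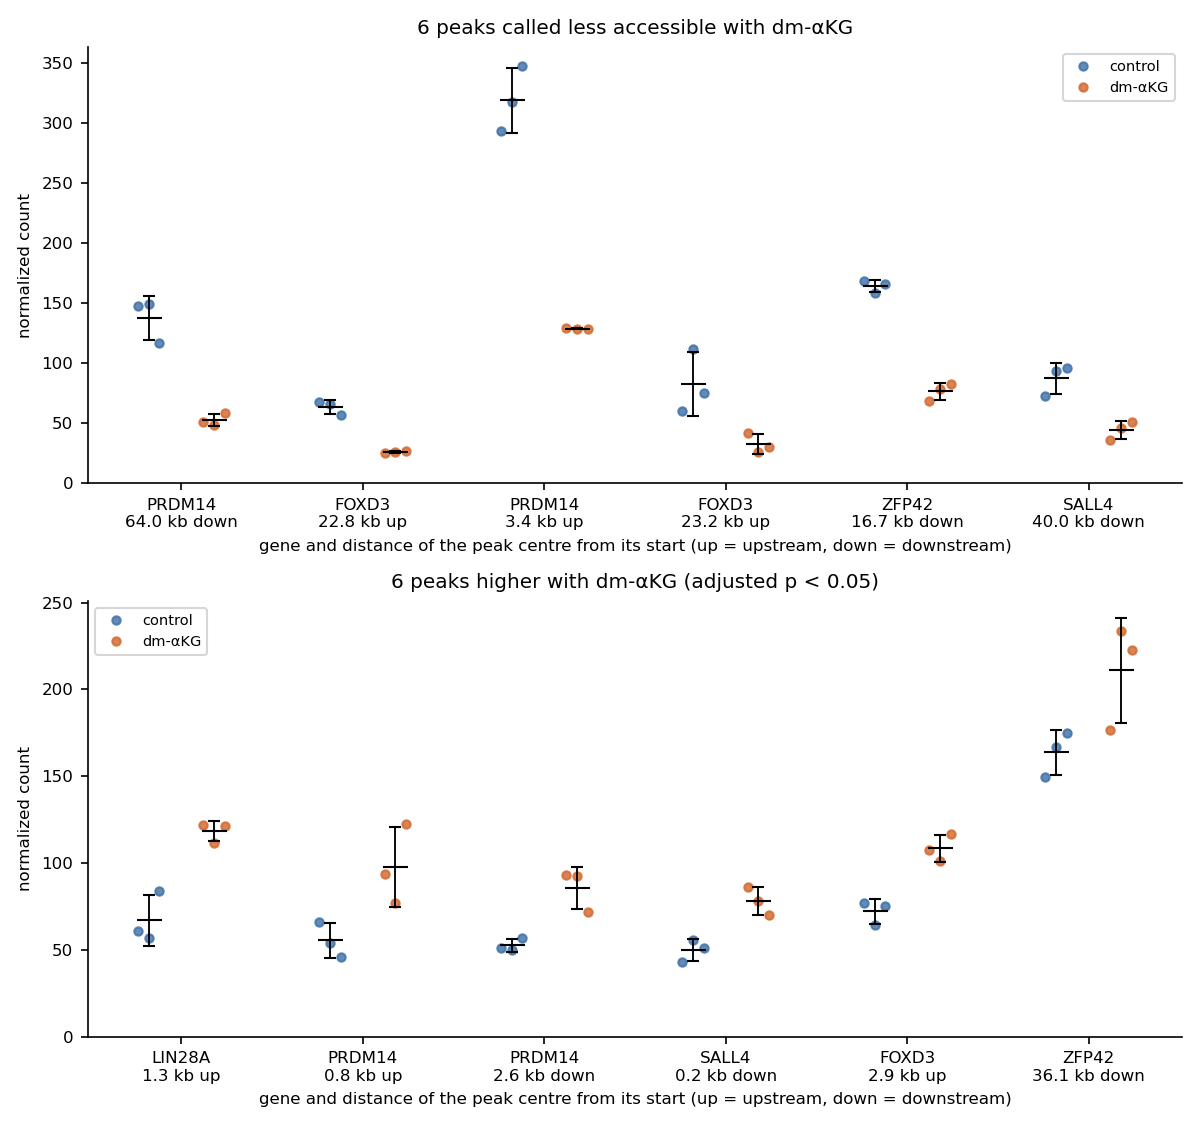
Normalized counts of the 6 peaks called less accessible (top) and of the 6 higher peaks (bottom), with 1 point per library, blue for control and orange for dm-αKG, and bars for the mean ± SD (n = 3). In none of the 12 peaks do the treatments overlap, and the counts of the PRDM14 peak 3355 bp upstream are the furthest apart in number. The 12 peaks were picked by their test results, so the lack of overlap is no separate support.

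At the promoters, taken as the peak of highest count within 1 kb of a start, levels ranged more widely over genes than between treatments. Some genes were close, however. Control levels of PRDM14 and ZFP42 differed by less than either changed with dm-αKG, and those of LIN28A and FOXD3 by less than FOXD3 changed. Per 200 bp, the control level was 678 ± 41.3 (SD, n = 3) at PRDM14, 646 ± 22.4 at ZFP42, 481 ± 39.8 at LIN28B, 296 ± 28.6 at SALL4, 121 ± 8.10 at LIN28A and 106 ± 5.36 at FOXD3, where the median of all promoter peaks was 83.9. The libraries of PRDM14 and ZFP42 overlapped in control, whereas those of the other neighbours in this order did not, and those of LIN28A and FOXD3 only just failed to. Each of these peaks was chosen for its high count, whereas the median covers all peaks within 1 kb of any start, without such a choice. Choosing by count also favours wide peaks. At LIN28A a narrower peak 570 bp upstream had 166 per 200 bp in control, above the 121 of the chosen peak. The LIN28B promoter peak, an exonic peak, held 24.3% repeated words.
With dm-αKG these promoter peaks of PRDM14, FOXD3 and ZFP42 were lower and those of SALL4, LIN28A and LIN28B did not pass. Among the weaker peaks within 1 kb of a start of the same gene, that of LIN28B at chr6:104940287-104940487 (479 bp) was lower. Those of PRDM14 at chr8:70072369-70072568 (776 bp) and of SALL4 at chr20:51802230-51802429 (145 bp) were higher. Among all peaks within 1 kb of any start, 4.8% were lower and 9.78% higher. The PRDM14 peak at chr8:70071264-70071468 went from 742, 661 and 681 normalized counts to 615, 580 and 572 (log2 fold change -0.23, SE 0.07, edgeR adjusted p = 0.0156). That of FOXD3, at chr1:63322150-63322560 in an exon of FOXD3-AS1, went from 210, 214 and 231 to 178, 155 and 145 (-0.43, SE 0.12, adjusted p = 0.00764). That of ZFP42, at chr4:187995587-187995787, went from 631, 643 and 674 to 551, 572 and 564 (-0.21, SE 0.07, adjusted p = 0.0369). In all 3 the treatments did not overlap. FOXD3 kept its call without any one library. PRDM14 lost it without control replicate 1 (-0.18, adjusted p = 0.165) or dm-αKG replicate 2 (-0.22, adjusted p = 0.0626). ZFP42 lost it with DESeq2 (-0.21, adjusted p = 0.0800), with total counts (-0.19, adjusted p = 0.0501) or upper-quartile scaling (-0.19, adjusted p = 0.0551), and without any one library except dm-αKG replicate 3, at log2 fold changes from -0.22 to -0.18.
The SALL4 peak, at chr20:51802545-51802750, had 326, 271 and 318 in control and 268, 287 and 237 with dm-αKG (log2 fold change -0.20, SE 0.10, edgeR adjusted p = 0.172). At LIN28A, chr1:26410529-26410888, the values were 203, 220 and 232 and then 203, 204 and 214 (-0.08, SE 0.11, adjusted p = 0.689). At LIN28B, chr6:104936839-104937042, they were 515, 512 and 443 and then 449, 500 and 451 (-0.08, SE 0.08, adjusted p = 0.533). In these 3 the treatments overlapped.

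**Figure D4:**
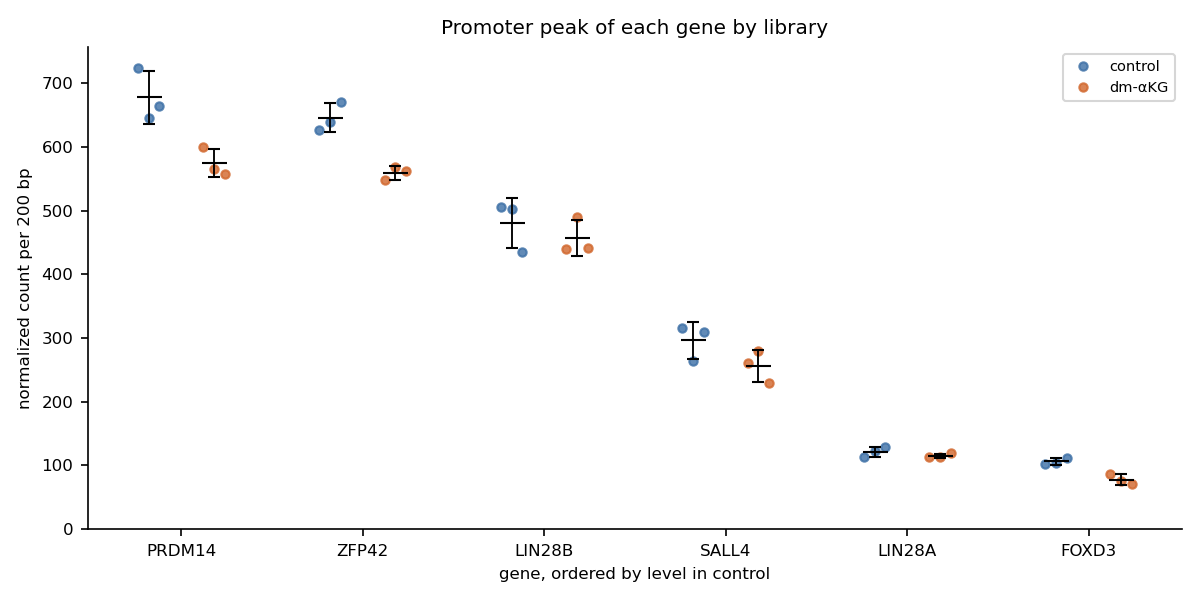
Normalized count per 200 bp of the promoter peak of each gene, with 1 point per library (blue control, orange dm-αKG) and bars for the mean ± SD (n = 3), ordered by the control level. The step from 678 at PRDM14 to 106 at FOXD3 in control is larger than any change with treatment, and the treatments do not overlap at PRDM14, ZFP42 and FOXD3.

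Counts summed over all peaks of the window gave 1 value per gene and library, and this sum was lower with dm-αKG for all 6 genes. Of 19596 protein-coding genes summed in the same way, 14.8% were lower and 22.6% higher at an adjusted p below 0.05 (edgeR), with a median log2 fold change of 0.02. The PRDM14 sum was 5086, 4870 and 5071 in control and 3948, 4059 and 4037 with dm-αKG, with a log2 fold change of -0.32 (SE 0.03, edgeR adjusted p = 2.74e-08). That of FOXD3 was 3414, 3444 and 3292 and then 2740, 2749 and 2977 (-0.27, SE 0.04, adjusted p = 3.41e-06). These were the largest falls of the 6 genes, and no treated library reached a control.
The sum at ZFP42 went from 3636 ± 26.8 to 3247 ± 41.7 (SD, n = 3 each, log2 fold change -0.16, edgeR adjusted p = 2.56e-04) and at SALL4 from 2858 ± 50.3 to 2559 ± 106 (-0.16, adjusted p = 0.00144). At LIN28A it went from 3216 ± 63.5 to 2948 ± 18.1 (-0.13, adjusted p = 0.00426), and 68.7% of this fall lay in the intronic peak at chr1:26418911-26419281. At LIN28B it went from 2778 ± 155 to 2546 ± 42.3 (SD, n = 3 each, log2 fold change -0.13, edgeR adjusted p = 0.0109). LIN28B lost its call without dm-αKG replicate 2 (-0.12, edgeR adjusted p = 0.0613), and also when control replicate 1 (-0.11, adjusted p = 0.0713) or 2 (-0.09, adjusted p = 0.121) was left out. In the other 5 genes no single peak held more than 26.0% of the fall. The treatments did not overlap in any of the 6, but how many of all genes had sums without overlap was not counted.

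**Figure D5:**
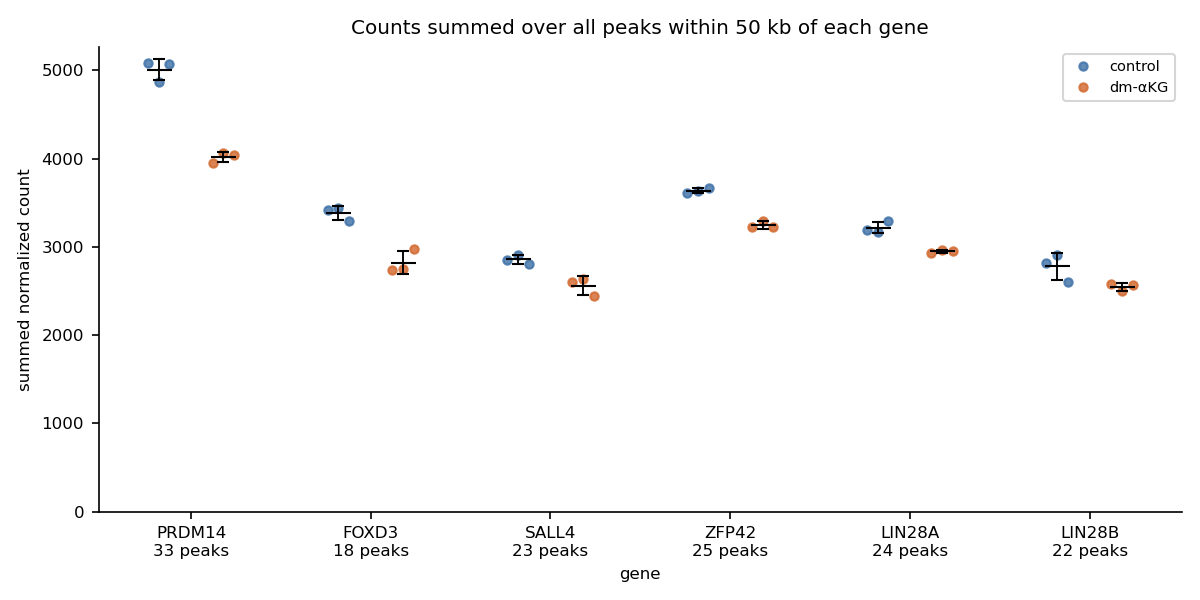
Normalized counts summed over all peaks within 50 kb of each gene, with 1 point per library (blue control, orange dm-αKG) and bars for the mean ± SD (n = 3). All treated libraries lie below all controls at each gene, by the most at PRDM14, where the mean went from 5009 to 4015. The share of all genes with such sums was not counted.

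Sequence motifs were counted as exact letters on both strands in the 200 bp around each peak centre. The SOX core was in 15 of the 36 lower peaks (41.7%), in 1 of the 6 higher ones and in 20 of the 103 others (19.4%), where 32.1% of all lower peaks and 19.7% of all peaks of the table held it. The TEAD motif was in 8 of the 36 (22.1% of all lower peaks, 14.6% of all peaks), the KLF letters (GGGTGNGG or GGGCGTG) in 8 (23.8% and 20.4%) and the AP-1 motif in 2 (6.41% and 6.33%). The OCT octamer was in 1 of the 36 lower peaks (2.78%), below its share of 5.32% of all lower peaks of the table. It was in 0 of the 6 higher peaks and in 2 of the 103 others (1.94%). The forkhead motif (TGTTTAC) was in 0 of the lower peaks and in 5 of the 145 (3.45%, against 2.85% of all peaks). The PRDM14 motif (GGTCTCTAA) was in 1, near ZFP42 at chr4:188041252-188041451, a peak that did not pass (edgeR adjusted p = 0.753) and held 23.1% repeated words. The letters shared by YY1 and REX1 (AAGATGGC) were in 0 of the 145 peaks, which allows a share of up to 2.07%, and in 1.18% of all peaks. The SOX core and TEAD letters are short and can overlap other motifs, and these shares are descriptions without a test.

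Genes of the surrounding pathways were examined in the same windows. The shares of all peaks to set beside these counts are 1.96% less and 0.782% more accessible, and 10.5% lower and 7.43% higher. In the LIN28 and let-7 pathway (17 genes, 464 peaks), 9 peaks were less accessible (1.94%, near the share of all peaks) and 3 more accessible (0.647%), and 65 were lower (14.0%) and 34 higher (7.33%), with a median log2 fold change of 0.004. The called peaks with the smallest adjusted p lay near TRIM71, a ubiquitin ligase and let-7 target (174 ± 5.85 to 67.0 ± 10.8, SD, n = 3 each, log2 fold change -1.37, edgeR adjusted p = 4.93e-11), TUT4 (47.4 ± 4.49 to 5.92 ± 4.22, -3.20, adjusted p = 7.54e-10) and HMGA1, a chromatin protein (92.3 ± 4.27 to 37.3 ± 9.92, -1.33, adjusted p = 1.03e-06). Of the SALL family, NuRD and PRDM14 partner genes (23 genes, 683 peaks), 14 peaks were less accessible (2.05%) and 8 more accessible (1.17%), and 72 were lower (10.5%) and 73 higher (10.7%). The shares of less accessible and lower peaks were near those of all peaks. The top called ones were 2 at the NuRD subunit gene MTA2, within 1 kb of a start (log2 fold changes -1.33 and -1.18, edgeR adjusted p = 1.38e-16 and 7.58e-08), and 1 near its relative MTA3 (-1.16, adjusted p = 2.14e-09).
Among pluripotency factors (22 genes, 508 peaks), 18 peaks were less accessible (3.54%, against 1.96% of all peaks) and 7 more accessible (1.38%, against 0.782%), and 106 were lower (20.9%, against 10.5%) and 29 higher (5.71%, against 7.43%), with a median log2 fold change of -0.11. The leading called peaks were 2 near TDGF1, a NODAL coreceptor (-1.25 and -1.62), and 1 near TFAP2C, a factor of naive and trophoblast cells (-1.36, edgeR adjusted p = 1.76e-11). Of YY1 and YY2, relatives of REX1, and of TRIML1 and TRIML2, which neighbour ZFP42 (4 genes, 73 peaks), 2 peaks were less accessible (2.74%, against 1.96% of all peaks) and 0 more accessible (0.782% of all peaks), and 13 were lower (17.8%, against 10.5%) and 2 higher (2.74%, against 7.43%). The called ones lay near YY1 (243 ± 8.61 to 117 ± 9.88, SD, n = 3 each, log2 fold change -1.07, edgeR adjusted p = 1.60e-10) and TRIML1 (-1.51, adjusted p = 3.95e-07).

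The window set which peaks were counted. Within 25 kb, 96 peaks gave 5 less accessible, 29 lower and 5 higher ones, and within 100 kb, 219 peaks gave 7, 51 and 8. Of the peaks in the 50 kb window, 106 had one of the 6 genes as the nearest protein-coding start, with 5 less accessible, 32 lower and 6 higher. Just outside the window, the first peak at LIN28A, 50374 bp away, was lower (146 to 96.9, log2 fold change -0.56, edgeR adjusted p = 0.00548), and those at SALL4 (0.38), LIN28B (-0.38) and ZFP42 (0.08) did not pass. Just inside, the outermost peaks of SALL4 (-0.14), LIN28A (-0.06), LIN28B (0.17) and ZFP42 (0.56) did not pass.
Over the 6 libraries, the genes on other chromosomes whose window sums were most like each gene were DHDDS (Pearson r = 0.9981) and HIVEP2 (0.9975) for PRDM14, HSBP1 (0.9985) and CDK20 (0.9983) for FOXD3, ENSG00000287725 (0.9942) and TUFT1 (0.9906) for SALL4, CHMP1B (0.9986) and ZNFX1 (0.9980) for ZFP42, STK11IP (0.9973) for LIN28A, and SLFN13 (0.9905) and PTGR2 (0.9843) for LIN28B. All 11 had a lower mean with dm-αKG, at log2 fold changes from -0.43 to -0.05. DHDDS neighbours LIN28A on chromosome 1 and their windows share peaks, so DHDDS is not independent of the 6 genes. The number of genes above an r of 0.95 was 770 of 17335 for PRDM14 and 34 of 16974 for LIN28B, and the libraries share 2 treatments, so these values describe patterns over treatments.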

How the data were processed

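ATAC-seq libraries of H9 nES cells, 3 control and 3 with dm-αKG, were grouped by the treatment in the labels. Per the study's methods and the submitters' processing notes, the authors aligned reads to hg38 (GRCh38) with Bowtie2, filtered the alignments and called peaks per replicate with MACS2, in 1 pipeline run per treatment. The notes also name cutadapt and Picard. The authors deposited 1 list of reproducible peaks per treatment, with each peak's score, its signal as a fold ratio over background, and its q-value as −log10, used here only to say which list holds a peak. Peaks cut to 200 bp around the summit were merged, and the authors deposited raw counts of reads per merged peak and library (bedtools 2.28.0), without normalization. Since peaks were called per treatment, a peak in 1 list only was chosen partly by its level there.

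All 171517 peaks were fitted with edgeR 4.0.16 in R 4.3.3 (TMM, quasi-likelihood, treatment only, Benjamini-Hochberg). Less and more accessible peaks were called at the thresholds of the study, a log2 fold change beyond 1 in size at an adjusted p below 0.01. Lower and higher peaks needed only an adjusted p below 0.05. Standard errors are the size of the log2 fold change over the square root of F. Normalized counts are counts scaled to the mean effective library size. Sums over the 50 kb window were tested over 19596 genes with the same library sizes. An exact permutation test of 3 against 3 cannot go below p = 0.10, so tests rest on these models. DESeq2 1.42.0, which the study used, gave no adjusted p for 6652 peaks and was an alternative, as were RLE, total and upper-quartile scaling, thinning, a mean of at least 10 counts, a replicate block, other windows and leaving out each library. Motifs and words of 32 bases were searched in the unmasked hg38 sequence with Python 3.11.15 and numpy 2.4.6.

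Named with values were the promoter peak, all called peaks, up to 3 lower and 3 higher peaks and the strongest peak away from the promoter of each gene, the 2 genes most like it (1 of which is not reported here for LIN28A), and up to 3 called peaks per pathway list. Further peaks are given by position and fold change. The genes and lists were chosen with earlier results of these data known. On simulated data with the real means, edgeR recovered 48 of 50 peaks at a fold of 0.25 and 29 of 50 at 0.5, with 9 false calls in 171517.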

Additional observations from a re-analysis of the deposited data

How the results depend on the processing

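Over 6 fits that each left out 1 library, the less accessible peaks of the 6 genes numbered 4 to 9, the lower peaks 29 to 36, the higher peaks 4 to 6 and the window sums past the threshold 5 to 6. More accessible peaks numbered 0 to 1, with 1 also when libraries were thinned to the smallest total. Promoter peaks past the threshold numbered 1 to 3. Of the called peaks, 5 remained called with total counts or upper-quartile scaling and 6 with DESeq2. Of the single values named in the text under these alternatives, 490 kept their direction and their side of the threshold, 27 lost and 1 gained the call at an adjusted p below 0.05. In 2 the sign turned, neither of them called, with values over fits leaving out 1 library of -0.122 to 0.00458 at the SALL4 peak at chr20:51767170 and of -0.0861 to 0.000716 at the ZFP42 peak at chr4:188042297. The cause was not tested.

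Deviations of same-numbered libraries correlated at -0.0164, 0.00106 and 0.0132, so no shared effect of the replicate number was seen. This cannot tell whether same-numbered samples were prepared together. With the replicate number as a block, 5 peaks were less accessible, 35 lower, 6 higher and 0 more accessible, 3 promoter peaks and 6 window sums passed. The block ended the call of the SALL4 peak at chr20:51762404 (-0.984). The smallest count in the 145 peaks was 3, and for the 103 that did not pass a missed threshold does not show that they did not differ.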
